A study of Mus musculus with 7 samples.

Results

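The 10 neurite microtubule genes are Stmn1, Stmn2, Stmn3 and Stmn4 (stathmins), Map2, Mapt and Map1b (microtubule-associated proteins), Crmp1 and Dpysl3 (collapsin response mediator proteins) and Tubb3 (a neuronal beta tubulin). They were taken by symbol from the 48709 genes of each deposited table, after the version suffix of the gene identifiers was dropped, and all 10 were found. They were chosen by name with their expected counts and TPM in these same libraries, and the contrasts between the 3 groups, already seen, so their differences between groups are described here and not tested. Of the 10, 9 had enough reads to enter the model fitted to 14907 genes; Stmn4, with 4 counts over all libraries, did not.

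RNA came from GFP-positive supporting cells, which hold and nourish the sensory hair cells of the hearing organ, sorted from cochleae of mice at postnatal day 1. Each organ had been kept for 48 h in culture medium with EGF and FGF and with 1 of 3 additions: the solvent DMSO (2 libraries), 10 µM GSK-343, an inhibitor of the histone H3 lysine 27 methyltransferase EZH2 (3 libraries), or 200 nM TSA, trichostatin A, which blocks histone deacetylases (2 libraries). Mouse strain, the transgene that carries GFP and the number of animals behind a library are not given in the labels, nor is it said whether replicates are separate cultures, so any p-value measures the spread between these libraries, which may be technical.

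Microtubules are hollow polymers of alpha and beta tubulin, and in a growing neurite their turnover sets how the process extends. Stathmins bind free tubulin dimers and promote disassembly, MAP2, tau and MAP1B bind along the polymer and stabilise it in dendrites and axons, and collapsin response mediator proteins carry tubulin to growing ends and relay semaphorin signals in the growth cone. Most of these genes are read as neuronal markers, although stathmin 1 is made by many dividing cells and microtubules also form stiff bundles in the pillar and Deiters cells of the cochlea.

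RefSeq promoter windows (300 bases, from 250 before to 50 after an annotated start, build GRCm38.p6) were at hand for 5 of the 10 members: Stmn3, Map2, Map1b, Tubb3 and, with 2 starts, Crmp1. Both of the study's drugs act on chromatin, so the CpG content of these windows is given. The Map2 window held 37 CpG dinucleotides and the upstream Crmp1 window 41, at the 94.4th and 96.5th percentiles of 32851 mouse windows, whose median was 7. The Stmn3 window, with 6, stood at the 43.6th percentile. The GC box GGGCGG, read on both strands with overlapping matches counted, occurred 5 times in the Map2 window, 5 times in the upstream Crmp1 window and 0 times in that of Stmn3, and 35.7% of all windows hold at least 1. The stretches below lie upstream of the first annotated exon and show these CpG-rich and CpG-poor ends of the range, read 5′ to 3′ along each gene's strand, with GC boxes on either strand in capitals. They run over chr1:66175079-66175272 on the plus strand for Map2, chr5:37241808-37241939 on the plus strand for Crmp1 and chr2:181314501-181314750 on the minus strand for Stmn3.
Map2: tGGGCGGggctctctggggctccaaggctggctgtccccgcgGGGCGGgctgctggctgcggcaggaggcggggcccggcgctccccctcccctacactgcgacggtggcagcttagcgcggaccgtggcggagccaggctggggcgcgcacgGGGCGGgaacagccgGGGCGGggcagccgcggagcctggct
Crmp1: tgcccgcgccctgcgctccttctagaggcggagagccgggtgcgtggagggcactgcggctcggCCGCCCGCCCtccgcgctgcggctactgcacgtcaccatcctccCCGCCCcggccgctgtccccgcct
Stmn3: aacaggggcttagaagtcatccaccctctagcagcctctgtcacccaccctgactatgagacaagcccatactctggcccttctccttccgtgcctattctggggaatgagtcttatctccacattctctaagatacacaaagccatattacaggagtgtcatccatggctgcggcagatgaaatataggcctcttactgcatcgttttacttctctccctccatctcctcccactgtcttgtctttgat
The printed part holds 4 of the 5 boxes of Map2 and 3 of the 5 of Crmp1. Between those extremes, the windows of Tubb3 (26 CpG), Map1b (23) and the downstream Crmp1 start (20) each held 2 GC boxes. The cyclic AMP response element TGACGTCA was in 0 of the 6 windows and in 1.79% of all windows; that says only that these letters are absent from these stretches.

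Total expected counts were 5974230 and 5124247 in DMSO, 3398893, 3818798 and 4248336 in GSK-343, and 2724381 and 2963228 in TSA. The DMSO libraries stand apart in how they were sequenced: length minus effective length was 49 bases in both, against 208 to 213 bases in the 5 treated libraries, and mitochondrial ribosomal RNA took 20.8% to 23.6% of their counts against 3.47% to 18.1%. Drug and read layout therefore cannot be told apart in any comparison with DMSO, and TSA is set against GSK-343 first. All 12 supporting cell markers were detected in each of the 7 libraries, with Sox2 at 91.0 to 158 TPM. Detection does not show that the cells were pure. All 12 hair cell markers were also above 0 in DMSO replicate 2, GSK-343 replicates 1 and 3 and both TSA libraries. Levels are given in TPM, RSEM's share of transcripts scaled for transcript length. Differences between groups are log2 fold changes ± standard error (SE) in CPM, read counts scaled to the TMM-normalised library size, from the edgeR fit.

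Stmn2, Map2 and Mapt were highest in both TSA libraries, whereas the TSA and GSK-343 libraries overlapped for Stmn1, Map1b and Tubb3. The 10 members summed to 596 and 428 TPM in TSA, 148, 152 and 173 TPM in GSK-343, and 132 and 109 TPM in DMSO. The order of the genes by mean TPM differed as well: Stmn1, Map1b and Map2 led in DMSO, Stmn1, Dpysl3 and Map1b in GSK-343, and Stmn2, Map2 and Stmn1 in TSA. Among these leading genes, neighbours in the order overlapped over their libraries in each group, except Stmn1 and Dpysl3 in GSK-343.

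**Figure D1:**
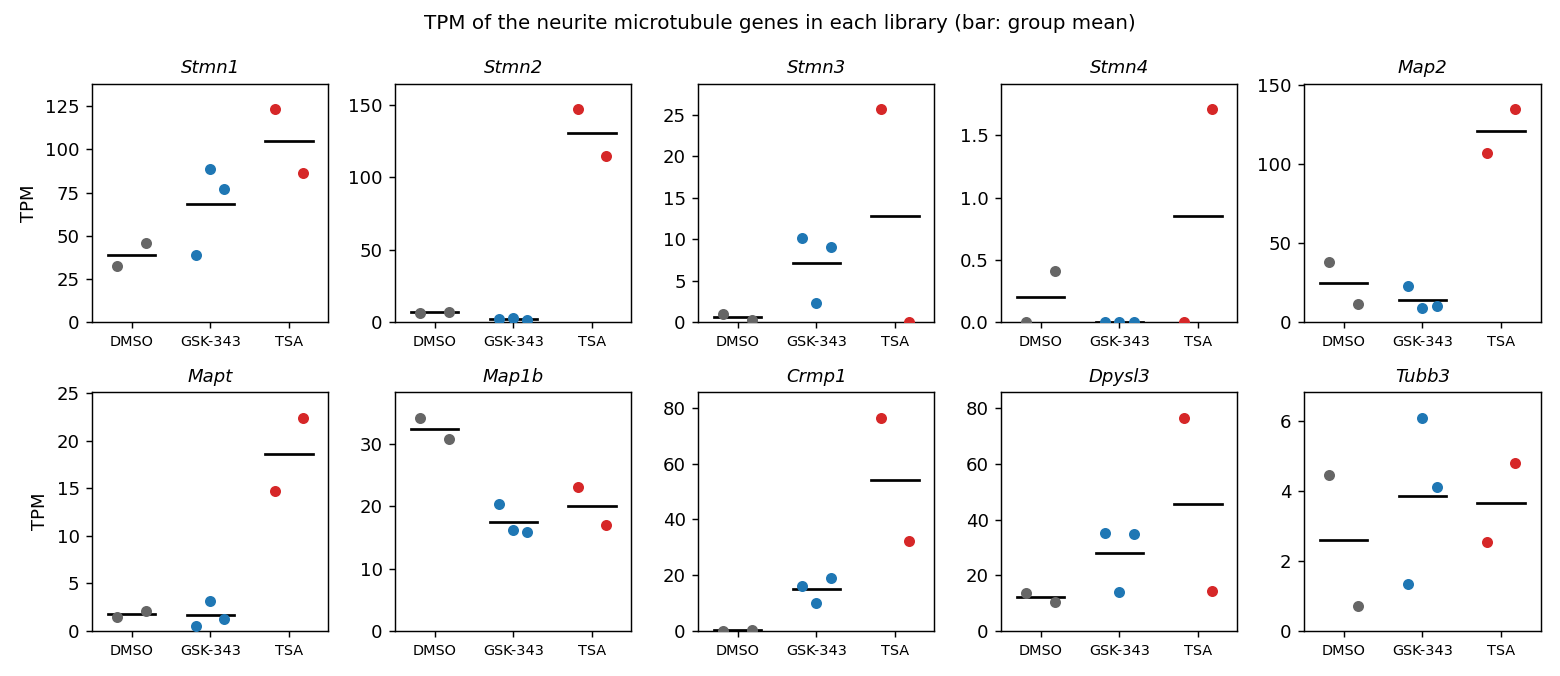
TPM (vertical axes, each from 0) of the 10 genes in the 7 libraries by treatment; each dot is a library and each bar a group mean. Stmn2, Map2, Mapt and Crmp1 have both TSA dots above every other dot, and the 2 TSA dots of Stmn3, Crmp1 and Dpysl3 lie far apart.

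Among the stathmins, Stmn2 (SCG10, chromosome 3, 8509360 to 8561606, plus strand, mm10), a membrane-anchored stathmin of growth cones, was at 6.57 and 6.89 TPM in DMSO, 2.08, 3.01 and 1.63 TPM in GSK-343, and 147 and 114 TPM in TSA. All 3 groups were separate, with TSA highest, DMSO between and GSK-343 lowest. The fold change was 5.45 ± 0.46 for TSA minus GSK-343, 2.92 ± 0.46 for TSA minus DMSO and -2.53 ± 0.44 for GSK-343 minus DMSO. On the log2(TPM + 1) scale the last 2 were 4.08 and -1.28, so the size of the difference from DMSO depends on the scale. The lowest levels rest on 7, 13 and 8 counts in the GSK-343 libraries, against 385 and 337 in TSA.

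Stmn1 (chromosome 4, 134468320 to 134473843, plus strand), the soluble stathmin of proliferating and progenitor cells, was at 32.5 and 45.7 TPM in DMSO, 38.9, 88.7 and 76.8 TPM in GSK-343, and 123 and 86.4 TPM in TSA. The treated groups overlapped. In CPM all 3 groups overlapped, at 22.0 and 41.4 in DMSO, 16.7, 40.4 and 39.8 in GSK-343, and 39.5 and 34.6 in TSA, and the fold changes were 0.20 ± 0.47, 0.23 ± 0.51 and 0.03 ± 0.47 in the same order of comparisons. Stmn1, like Dpysl3 below, separates TSA from DMSO in TPM but not in CPM: on the log2(TPM + 1) scale its difference was 1.40, where the median of all genes was 0.67.

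The balance between these stathmins differed between the groups. Stmn1 made up 81.2% and 85.8% of stathmin TPM in DMSO, 76.0%, 94.3% and 87.8% in GSK-343, and 41.7% and 42.7% in TSA. Stmn2 made up 16.4% and 12.9%, then 4.06%, 3.20% and 1.86%, and in TSA 49.7% and 56.5%. In both TSA libraries Stmn2 was the most abundant stathmin, and in the other 5 Stmn1 was.

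Stmn3 (SCLIP, chromosome 2, 181306459 to 181314500, minus strand), a neuronal stathmin of neurite branching, was at 0.930 and 0.240 TPM in DMSO, 10.2, 2.33 and 9.03 TPM in GSK-343, and 25.7 and 0 TPM in TSA. The 2 TSA libraries held its highest and its lowest value, from 34 and 0 counts. Over summed counts the GSK-343 to DMSO ratio in CPM was 6.10 (exact 95% interval 2.42 to 19.7). The TSA to DMSO ratio was 8.07 (3.14 to 26.4). These intervals cover counting error only and leave out the spread between libraries. The edgeR fit, which includes that spread, gave 2.59 ± 1.48 for GSK-343 minus DMSO and 2.95 ± 1.56 for TSA minus DMSO. For TSA minus GSK-343 it gave 0.36 ± 1.25. None of these fold changes had an adjusted p under 0.05 in that fit. Without TSA replicate 1, the TSA library that remains has 0 counts and lies below both other groups, so the TSA to DMSO ratio rests on 1 library. Stmn4 (chromosome 14, 66344296 to 66361680, plus strand), a brain stathmin, had 1 count in 1 DMSO library, 3 counts in 1 TSA library and none in the other 5. A count of 0 allows levels up to 0.674 to 0.880 CPM in these libraries, so levels of Stmn4 below that could be missed.

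Of the microtubule-associated proteins, Map2 (chromosome 1, 66175273 to 66442583, plus strand), which marks dendrites, was at 37.9 and 11.3 TPM in DMSO, 22.9, 8.88 and 10.3 TPM in GSK-343, and 107 and 135 TPM in TSA. Both TSA libraries lay above the other 5, whose groups overlapped. The fold change was 2.83 ± 0.43 for TSA minus GSK-343, 2.60 ± 0.50 for TSA minus DMSO and -0.23 ± 0.43 for GSK-343 minus DMSO. An antisense gene, Gm10558, overlaps an exon of Map2; it had 0 to 28 counts a library against 78 to 1056 for Map2, and no source used here says whether reads were counted by strand.

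Mapt, which encodes the axonal protein tau (chromosome 11, 104231390 to 104332090, plus strand), was at 1.51 and 2.07 TPM in DMSO, 0.550, 3.10 and 1.26 TPM in GSK-343, and 14.8 and 22.4 TPM in TSA. TSA was again separate and highest, while DMSO and GSK-343 overlapped. In CPM DMSO was separate from GSK-343, at 6.96 and 10.7 against 1.42, 3.16 and 2.77, and TSA stood at 26.3 and 39.9. Fold changes were 3.73 ± 0.62, 1.91 ± 0.65 and -1.82 ± 0.61, from 5 to 136 counts a library. For GSK-343 minus DMSO the value on the log2(TPM + 1) scale was -0.19, so the lower level in GSK-343 is present in CPM and nearly absent in TPM.

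Map1b (chromosome 13, 99421446 to 99516540, minus strand), the MAP of early axon growth, had another pattern. It was at 34.2 and 30.8 TPM in DMSO, 20.3, 16.2 and 15.8 TPM in GSK-343, and 23.1 and 17.0 TPM in TSA. DMSO was separate and highest, and the treated groups overlapped. In CPM the gap was wider, 358 and 360 in DMSO against 94.7 to 121 in the 5 treated libraries. Fold changes were -0.16 ± 0.29 for TSA minus GSK-343, -1.83 ± 0.33 for TSA minus DMSO and -1.67 ± 0.28 for GSK-343 minus DMSO; on the log2(TPM + 1) scale the last 2 were -0.68 and -0.87, and with a trend on GC content and length removed GSK-343 minus DMSO was -0.47. Its difference from DMSO runs with the read layout, and the part of the layout in it cannot be told apart.

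Crmp1 (chromosome 5, 37241940 to 37292133, plus strand), a collapsin response mediator of migrating and growing neurons, was at 0 and 0.480 TPM in DMSO, 16.2, 9.91 and 19.0 TPM in GSK-343, and 76.5 and 32.2 TPM in TSA. The 3 groups did not overlap. DMSO held 1 count in all, against 273 in GSK-343 and 380 in TSA. The TSA to DMSO ratio in CPM was 451 (exact 95% interval 80.5 to 17869, counting error only), that of GSK-343 to DMSO 189 (33.7 to 7498), and TSA minus GSK-343 was 1.25 ± 0.51, or 0.56 without TSA replicate 1. The DMSO count was assigned to a transcript of 595 bases, the length of an annotated Crmp1 transcript that retains an intron, whereas the mean transcript length was 2379 to 2926 bases in the treated libraries.

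Dpysl3 (CRMP4, chromosome 18, 43320984 to 43438286, minus strand), a relative that bundles actin and binds microtubules in growth cones, was at 13.7 and 10.5 TPM in DMSO, 35.3, 14.1 and 34.9 TPM in GSK-343, and 76.5 and 14.4 TPM in TSA. In TPM each treated library lay above both DMSO libraries, while 1 TSA library lay above all GSK-343 libraries and the other next to the lowest of them. TSA minus GSK-343 was 0.22 ± 0.54; it was -1.18 without TSA replicate 1 and 0.90 without TSA replicate 2, so 1 library sets its direction. TSA minus DMSO was 0.71 ± 0.60 and likewise -0.64 without TSA replicate 1. Tubb3 (chromosome 8, 123411424 to 123422015, plus strand), the neuronal beta tubulin that serves as a pan-neuronal stain, was at 4.45 and 0.720 TPM in DMSO, 1.34, 6.08 and 4.12 TPM in GSK-343, and 2.53 and 4.79 TPM in TSA. All 3 groups overlapped, the fold changes were -0.09 ± 1.11, -0.50 ± 1.20 and -0.41 ± 1.08, and these came from 2 to 32 counts a library; without DMSO replicate 1, which held the 32, the last 2 were 2.35 and 2.45.

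**Figure D2:**
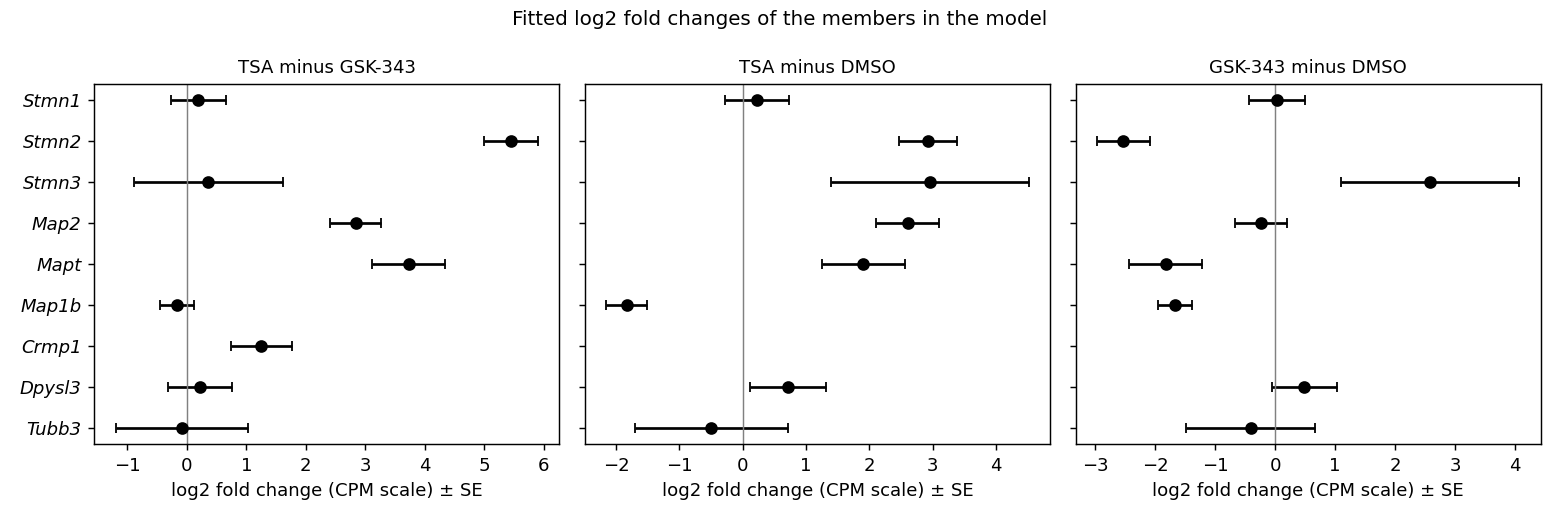
Fitted log2 fold changes on the CPM scale (horizontal axes) with SE bars for the 9 genes in the model; Crmp1 is left out of the panels against DMSO, where DMSO held 1 count. Stmn2, Mapt and Map2 lie farthest to the right for TSA minus GSK-343, and Map1b lies left of 0 in both comparisons with DMSO.

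Counted with the edgeR threshold (Benjamini-Hochberg adjusted p under 0.05), 3 of the 9 members in the model passed as higher in TSA than in GSK-343 (Stmn2, Map2 and Mapt), where 5.04% of all genes passed as higher and 10.7% in either direction. For TSA minus DMSO, 4 passed as higher (those 3 and Crmp1) and 1 as lower (Map1b), where 13.1% and 16.1% of all genes did, 29.2% together. For GSK-343 minus DMSO, 1 passed as higher (Crmp1) and 3 as lower (Stmn2, Mapt and Map1b), where 18.1% and 21.5% did, 39.6% together. Because the genes were chosen with these contrasts known, nothing is read from the counts. The median fold change of the 9 was 0.36, 1.91 and -0.23 in these comparisons, beside 0.00, -0.05 and -0.04 over all genes. These medians rest on single libraries: without TSA replicate 2 the first was 1.34, without TSA replicate 1 the second was 0.18, and the last was 0.21 without DMSO replicate 1, -0.51 without DMSO replicate 2, -0.03 without GSK-343 replicate 1 and 0.23 with total count scaling. Leaving out GSK-343 replicate 1 or replicate 3 took the first to 0.59 and 0.72. The comparisons share libraries and are not independent of each other.

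Groups whose libraries did not overlap were counted as well. For TSA minus GSK-343, 4 members were higher in CPM and 4 in TPM, where 23.5% and 31.5% of all genes were, and no member was lower, where 22.9% and 13.2% were. For TSA minus DMSO, 4 were higher in CPM and 6 in TPM (33.0% and 56.8% of all genes) and 1 lower on either scale (35.6% and 16.1%). For GSK-343 minus DMSO, 2 were higher in CPM and 3 in TPM (28.6% and 42.5%), and 3 and 2 lower (32.1% and 20.0%). Again the contrasts had been seen, and these shares are given only as background.

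The members were chosen with these contrasts known, so calls kept or lost under other settings describe only their dependence on processing. Stmn2 kept its call in all 3 comparisons under each of the 18 alternatives run. In TSA minus GSK-343 Map2 and Mapt lost it in limma fits with a pseudocount of 0.1 or with no filter, and Mapt also without TSA replicate 2 (3.38). In TSA minus DMSO Mapt lost it without any 1 of the 4 libraries compared (1.62 to 2.26), with the replicate block, with no filter on counts and with the GC and length trend removed. Map1b lost it in all 3 limma fits of TSA minus DMSO, and in GSK-343 minus DMSO in both limma fits on log2(TPM + 1) and with that trend removed. Mapt lost it in GSK-343 minus DMSO under 12 of 18 alternatives, among them leaving out DMSO replicate 2, GSK-343 replicate 1, GSK-343 replicate 3 or either TSA replicate.

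The tables also give the mean length of the transcripts that reads were assigned to, which moves with isoform use. For Map2, whose 24 annotated transcripts include 13 under 2000 bases and 7 over 4000, it was 1571 and 2827 bases in DMSO, 4971, 3993 and 5144 bases in GSK-343, and 4714 and 4997 bases in TSA. DMSO was separate and shorter, and GSK-343 and TSA overlapped, so the higher Map2 level in TSA than in GSK-343 came without a separation in length. Stmn1 showed the same order on a smaller scale, 812 and 960 bases in DMSO against 1011 to 1060 in the treated libraries. Mapt was at 5253 bases in both DMSO libraries, the length of 1 long transcript, and at 2015 to 5253 bases in the treated ones. Isoform assignment depends on the read layout, which differs for DMSO in the same way, and isoform use and layout cannot be told apart.

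**Figure D3:**
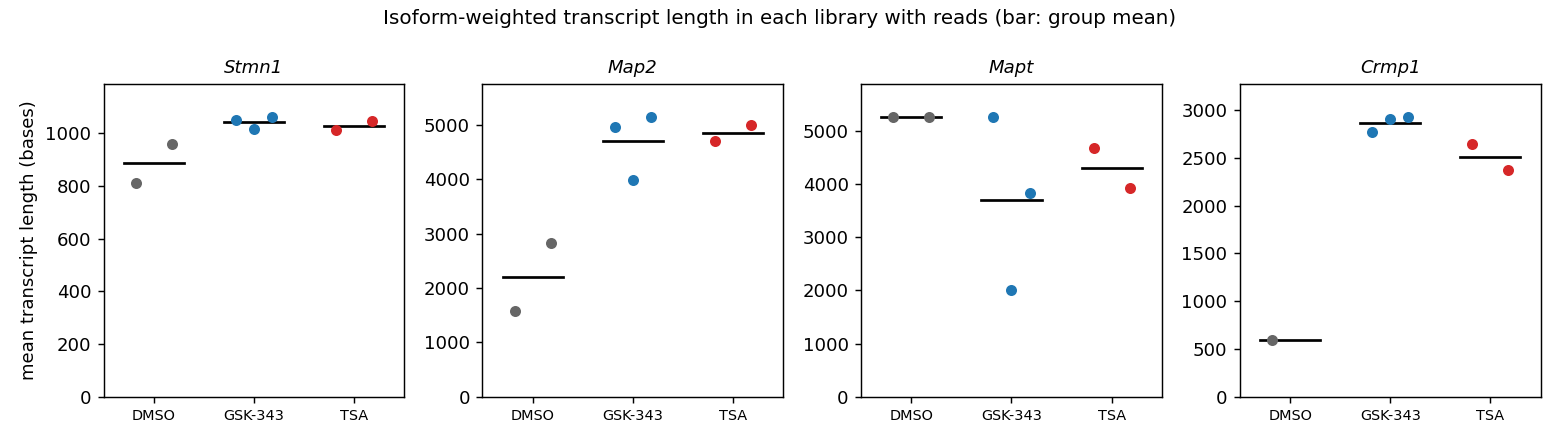
Mean transcript length in bases (vertical axes from 0), weighted by isoform, for 4 members in each library with reads; dots are libraries and bars group means. DMSO dots lie below all treated dots for Stmn1, Map2 and Crmp1 (595 bases, from 1 count) but not for Mapt.

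Lists of other genes that build, modify or move along microtubules, or that guide neurites, were read in the same genome-wide fit, with 141 genes in the model. In TSA minus GSK-343, 11 of them were higher and 16 lower past the adjusted threshold, or 7.80% and 11.3%, against 5.04% and 5.68% of all genes. In TSA minus DMSO 12 were higher and 25 lower, or 8.51% and 17.7%, against 13.1% and 16.1% of all genes. In GSK-343 minus DMSO 19 were higher and 35 lower, or 13.5% and 24.8%, against 18.1% and 21.5%. Those splits depend on the scaling: with total counts in place of TMM they were 14 and 9, 33 and 10, and 39 and 26. For these lists, rose and fell mean higher or lower in TSA than in GSK-343, not a change from DMSO. For Nav1 GSK-343 minus DMSO was -2.24 ± 0.38 and TSA minus DMSO -0.34 ± 0.42. For Ncam1 the same comparisons gave 0.62 ± 0.38 and 2.14 ± 0.43. Comparisons with DMSO are also between read layouts.

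The tubulins themselves, which stathmins bind and MAPs coat, did not follow Stmn2. Of 14 tubulins in the model 6 were lower in TSA than in GSK-343, with a list median of -1.24. Tubb2b was at 139 and 97.8 TPM in TSA against 427, 489 and 430 TPM in GSK-343 (-2.30 ± 0.32, adjusted p = 0.00176), and Tuba1a at 635 and 517 TPM against 1284, 1972 and 2208 TPM (-2.05 ± 0.35, adjusted p = 0.00376). Tubb4b (-1.89 ± 0.32, adjusted p = 0.00376) and Tuba1b (-2.12 ± 0.37, adjusted p = 0.00428) fell too, and the calls of all 4 held with any 1 library left out. For Tubb4b TSA minus DMSO was -0.04 ± 0.33 and GSK-343 minus DMSO 1.84 ± 0.32. For Tuba1a these were -2.11 ± 0.36 and -0.06 ± 0.32. These values are in CPM, and TPM gave another picture. Tubb4b was at 268 and 199 TPM in TSA, above 114 and 92.5 TPM in DMSO. Tuba1a was at 877 and 954 TPM in DMSO, below all GSK-343 libraries and above both TSA libraries. Tubulin genes are close copies, and RSEM shares ambiguous reads between them, so the split between single genes is uncertain. Summed over 12 alpha and beta tubulins other than Tubb3, TPM was 1625 and 1278 in TSA, 3241, 4370 and 4644 in GSK-343 and 1473 and 1485 in DMSO. With Tubb3 added to the sum, Tubb3 made up 0.0413% to 0.373% of it in any library.

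Among enzymes that fold or modify tubulin, 2 of 24 were higher and 2 lower in TSA than in GSK-343. The 2 higher ones, Ttll7 and Agtpbp1, were lower in GSK-343 than in DMSO (-2.47 ± 0.45 and -1.59 ± 0.44). Their TSA minus DMSO was 0.68 ± 0.47 and 0.53 ± 0.48, and Ttll7 was at 12.2 and 4.88 TPM in DMSO. Ttll7, a ligase that adds glutamates to beta tubulin, rose from 2.07, 1.02 and 1.69 TPM to 28.4 and 18.3 TPM (3.16 ± 0.45, adjusted p = 0.00186), and its opponent Agtpbp1, a deglutamylase, rose as well (2.12 ± 0.44, adjusted p = 0.00979; 0.144 without TSA replicate 2). The tubulin carboxypeptidase Vash2 (-1.24 ± 0.36, adjusted p = 0.0374) and the tubulin acetyltransferase Atat1 (-1.17 ± 0.34, adjusted p = 0.0417) fell, but each lost its call when any library other than GSK-343 replicate 1 was left out, with adjusted p of 0.0505 to 0.388 for Vash2 and 0.0564 to 0.303 for Atat1.

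Of 12 relatives of the members among MAPs and CRMPs, 2 were higher and 2 lower. Map1a, the MAP of mature neurons, was at 5.85 and 6.65 TPM in TSA against 0.170, 0.0900 and 0.540 TPM in GSK-343 (4.17 ± 1.01, adjusted p = 0.0202). Map7d3, which recruits kinesin to microtubules, had 18 and 27 counts in TSA against 1, 0 and 1 in GSK-343 (adjusted p = 0.0156). In DMSO it had 31 and 12.8 counts. Map4, the MAP of non-neuronal cells, fell (-1.28 ± 0.34, adjusted p = 0.0285), as did Dpysl4 (-1.44 ± 0.41, adjusted p = 0.0374). Without TSA replicate 2 none of the 4 passed (0.131 for Map1a, 0.184 for Map7d3, 0.281 for Map4 and 0.392 for Dpysl4). Map1a, Map4 and Dpysl4 also missed the threshold without GSK-343 replicate 2 (0.0520, 0.0783 and 0.0905), and Dpysl4 without DMSO replicate 1 (0.0501).

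Among factors that sever microtubules or bind their ends, 2 of 20 were higher and 1 lower in TSA than in GSK-343: Nav1 (1.90 ± 0.38, adjusted p = 0.00876) and the plus-end protein Clasp2 (1.81 ± 0.45, adjusted p = 0.0227) rose and Clip2 (-1.72 ± 0.43, adjusted p = 0.0219) fell. Without TSA replicate 2 their adjusted p was 0.0704, 0.246 and 0.237; Clasp2 was also lost without GSK-343 replicate 3 (0.0517), and Clip2 without GSK-343 replicate 2 (0.0601), GSK-343 replicate 3 (0.0767) or TSA replicate 1 (0.0501). Of 23 motor genes, the neuronal kinesins Kif5c (1.79 ± 0.31, adjusted p = 0.00437) and Kif21b (2.30 ± 0.61, adjusted p = 0.0316) rose and the dynein chain Dync1i1 (-2.21 ± 0.33, adjusted p = 0.00216) fell. Kif21b lost its call without GSK-343 replicate 1 (0.0656), GSK-343 replicate 2 (0.0750), TSA replicate 1 (0.195) or TSA replicate 2 (0.0944).

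Growth cone and adhesion genes gave 3 higher and 2 lower of 16. Ncam1, the neural cell adhesion molecule, was at 107 and 90.2 TPM in TSA against 20.8, 28.5 and 27.9 TPM in GSK-343 (1.52 ± 0.37, adjusted p = 0.0196), and the axon initial segment protein Nfasc rose too (1.58 ± 0.37, adjusted p = 0.0159). The actin regulator Marcksl1 (-2.18 ± 0.41, adjusted p = 0.00662) and the adhesion protein Nrcam (-1.41 ± 0.32, adjusted p = 0.0143) fell. For Marcksl1 TSA minus DMSO was 0.01 ± 0.41 and GSK-343 minus DMSO 2.19 ± 0.41. For Nrcam these were -1.45 ± 0.34 and -0.04 ± 0.30. These values are in CPM, and TPM gave another picture. Marcksl1 was at 180 and 212 TPM in TSA, above 79.0 and 85.2 TPM in DMSO. Nrcam was at 171 and 110 TPM in TSA, 387, 225 and 260 TPM in GSK-343, and 199 and 149 TPM in DMSO. Ncam1 lost its call without GSK-343 replicate 2 (0.0521) or TSA replicate 2 (0.117), Nfasc without TSA replicate 1 (0.121) and Nrcam without TSA replicate 2 (0.144). Of 13 semaphorins and their receptors, whose signal CRMPs relay, 2 fell, Plxna1 (-1.40 ± 0.37, adjusted p = 0.0276; 0.0770 without GSK-343 replicate 3 and 0.343 without TSA replicate 2) and Sema3f (-1.10 ± 0.32, adjusted p = 0.0397), which kept its call in 1 of the 7 fits with a library left out.

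Kinases that phosphorylate stathmins, MAPs or CRMPs gave no call in TSA minus GSK-343 by edgeR: 0 of 19 passed, with 5 at an unadjusted p under 0.05. DESeq2 called 2, and each of the 3 limma fits called 0. The gene with the smallest p was Mark2, whose kinase detaches tau and MAP2 from microtubules (-1.04 ± 0.34, adjusted p = 0.0607).

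**Figure D4:**
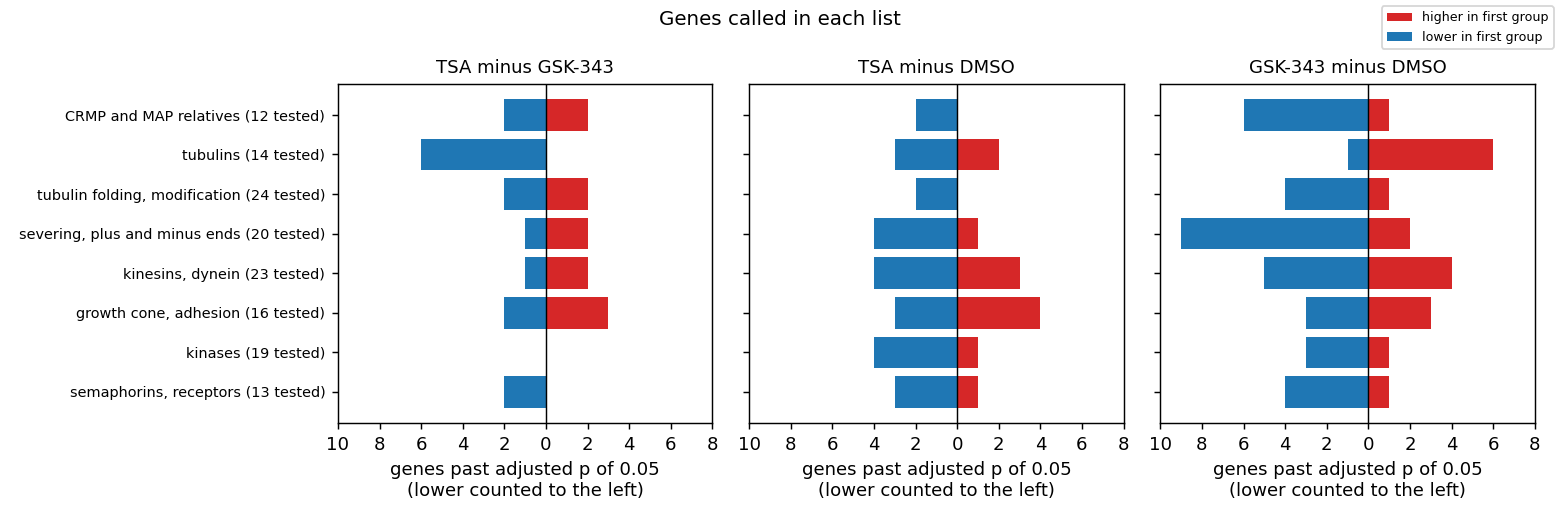
Genes past an adjusted p of 0.05 (horizontal axes, counts; higher in the first group to the right, lower to the left) in 8 lists for each comparison. For TSA minus GSK-343 the tubulins have 6 lower genes, the longest bar, and the kinases have none.

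Which cells these transcripts came from cannot be read from sorted bulk RNA, where more cells of a type and more RNA per cell look alike. Neuron markers summed to 628 and 384 TPM in TSA, 525, 206 and 232 TPM in GSK-343, and 154 and 119 TPM in DMSO, with Isl1, which the cochlea's sensory precursors also make, the largest term at 97.2 to 391 TPM. Of the 12, 8 to 12 were above 0 in each library. Over the other 11 markers, a sum taken after the values were seen, TSA stood at 395 and 237 TPM, GSK-343 at 134, 35.8 and 84.2 TPM and DMSO at 16.6 and 21.7 TPM, so the 3 groups were separate and TSA was highest, as for the summed members. Synaptic and neurofilament genes carried much of it: Snap25 was at 135 and 97.8 TPM in TSA, 26.3, 7.32 and 19.6 TPM in GSK-343 and 0.580 and 0.990 TPM in DMSO. Syt1 was at 137 and 96.6 TPM in TSA, 98.0, 20.2 and 47.1 TPM in GSK-343 and 10.2 and 12.1 TPM in DMSO, and Nefl at 57.8 and 17.6 TPM in TSA, at most 7.55 TPM in GSK-343 and at most 0.300 TPM in DMSO. Syp was at 19.8 and 11.3 TPM in TSA and at most 2.07 TPM elsewhere. Other neuronal genes were at or near 0: Prph at 0 in all DMSO and GSK-343 libraries and at most 2.35 TPM in TSA, Elavl3 at 0 to 0.260 TPM outside TSA and 1.31 and 2.41 TPM in TSA, and Nefh at most 0.580 TPM in any library. Of 10 neuron markers in the model, Nefl, Snap25 and Scn9a rose in TSA minus GSK-343; Scn9a lost its call without TSA replicate 2 (adjusted p = 0.0956), and Nefl without either TSA replicate (0.426 and 0.0686), GSK-343 replicate 1 (0.0526) or GSK-343 replicate 2 (0.0920). Of all genes, 5.04% passed as higher in TSA than in GSK-343. Summed over all 12 neuron markers, TSA and GSK-343 overlapped. Only the sum without Isl1, chosen after the values were seen, was higher in both TSA libraries, as were Stmn2, Map2 and Mapt. Not every single marker was. Syt1 overlapped between TSA and GSK-343, as did Nefm (33.6 and 5.07 TPM against 0.530, 2.07 and 5.96 TPM). Rbfox3 was at 3.82 and 0 TPM in TSA against 0.430, 2.56 and 0.960 TPM in GSK-343. Scn9a was at 1.49 and 1.31 TPM in TSA, 0 in GSK-343, and 1.84 and 1.33 TPM in DMSO. The markers' part in the levels of Stmn2, Map2 and Mapt was not tested.

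Hair cell markers summed to 1733 and 452 TPM in TSA, 593, 298 and 612 TPM in GSK-343 and 110 and 83.1 TPM in DMSO, with Pou4f3 at 518 and 71.1 TPM in the TSA libraries. TSA replicate 1, the higher of the pair, is also the library with the highest TPM of Stmn1, Stmn2, Stmn3, Crmp1 and Dpysl3. Map2 and Mapt were highest in TSA replicate 2, and Stmn2, Map2 and Mapt were high in both TSA libraries. Supporting cell markers summed to 11960 and 8634 TPM in TSA, 23246, 34752 and 34458 TPM in GSK-343, and 5601 and 3896.5 TPM in DMSO. Most of the TSA and GSK-343 sums was S100a1, at 6686 and 5628 TPM in TSA and 15057, 26992 and 27765 TPM in GSK-343. In DMSO S100a1 was at 1204 and 767 TPM. Past the threshold 6 of 12 were lower in TSA than in GSK-343, where 5.68% of all genes were. Over the alternatives that number ran from 0 to 6. In TSA minus DMSO 1 supporting cell marker passed as higher and 6 as lower in CPM, where 13.1% and 16.1% of all genes did. Glial markers were at 270 and 220 TPM in TSA, 357 to 653 TPM in GSK-343, and 608 and 627 TPM in DMSO. Mesenchyme markers were at 23.3 to 77.1 TPM and blood or vessel markers at 6.40 to 23.5 TPM in all libraries. The part of these cells in the members' values was not tested.

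**Figure D5:**
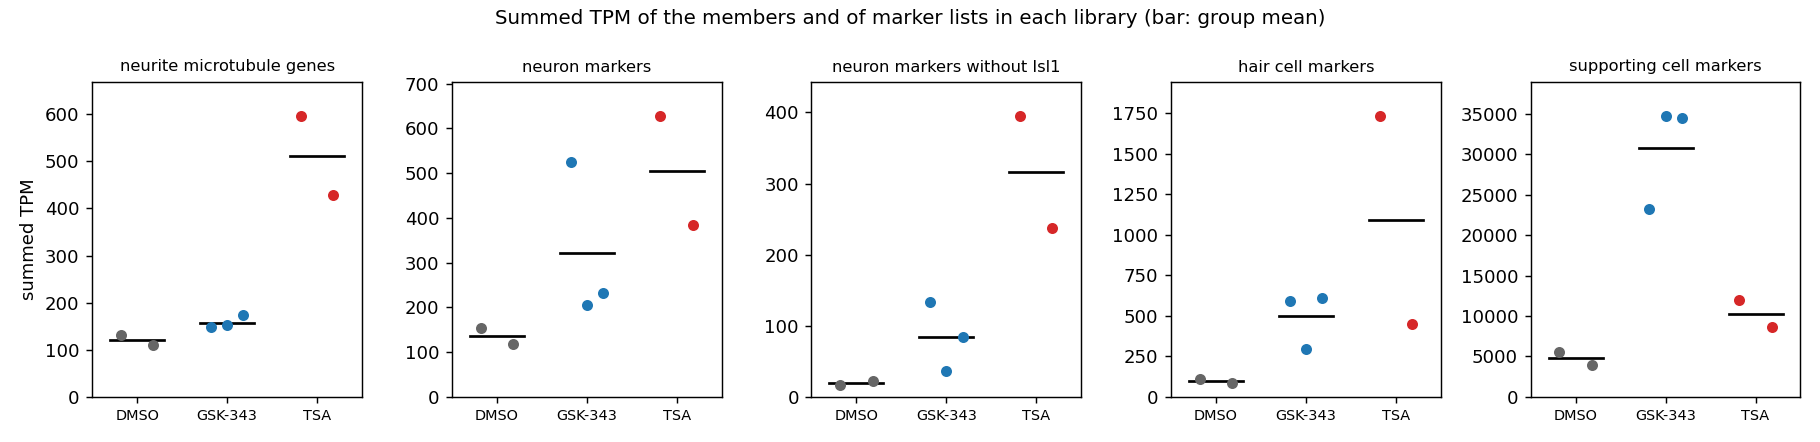
Summed TPM (vertical axes from 0) of the 10 members, of 3 marker lists and of the neuron markers without Isl1 in each library; dots are libraries and bars group means. The members' sums in TSA, 596 and 428 TPM, lie above every other library, as do the TSA sums of neuron markers without Isl1, 395 and 237 TPM; with Isl1 the neuron marker sums of TSA and GSK-343 overlap, as the hair cell marker sums do.

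Likeness to Stmn2 was measured by Pearson's r of log2(TPM + 1) over the 7 libraries, a description in which libraries of a group share their treatment and, for DMSO, a read layout and a greater depth. Mapt (0.945) and Map2 (0.902) were most like it among the members, followed by Stmn1 (0.560), Stmn4 (0.555, from 4 counts over all libraries) and Crmp1 (0.483). Dpysl3 (0.255), Tubb3 (0.0874), Map1b (0.0402) and Stmn3 (-0.0103) were little like Stmn2. Of 9327 protein-coding genes whose log2 CPM averaged 3 or more, the 6 most like Stmn2 were Tshz3 (0.996), Sh3kbp1 (0.993), Lrrc8c (0.990), Pla2g4a (0.989), Spg20 (0.982) and Asxl3 (0.981). Tshz3, a zinc finger factor, was at 3.10 and 3.17 TPM in DMSO, 1.58, 1.94 and 1.01 TPM in GSK-343 and 19.1 and 13.5 TPM in TSA. That is the order of groups seen for Stmn2 at a lower level, and it follows from choosing genes by their likeness to Stmn2.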

How the data were processed

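RNA of 7 libraries was sequenced by the submitters from kits for small inputs. STAR, RSEM, DESeq2 and the build mm10 are named in the submitters' processing notes, without versions; the annotation release is not given in the sources used here. Per the file headers, the deposited expected counts, TPM values and mean transcript lengths are RSEM's estimates per gene. Expected counts deposited by the authors share ambiguous reads between genes, and non-whole values made up 45.8% to 50.8% of those above 0 in DMSO and 11.0% to 13.0% in the others. TPM values deposited by the authors are divided by effective length and scaled to a fixed sum, so they keep no depth. Symbols and positions came from GENCODE M21 (48349 of 48709 identifiers matched, 41341 with the same version) and promoters from RefSeq.

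Expected counts were rounded and fitted with edgeR 4.0.16 in R 4.3.3 (filterByExpr, TMM, robust quasi-likelihood fit of all 7 libraries, 4 residual degrees of freedom, biological coefficient of variation 0.43), with Benjamini-Hochberg adjustment over 14907 genes at 0.05. TMM factors ran from 0.754 in DMSO to 1.32 in TSA. Unadjusted p was under 0.05 for 4163 genes in TSA minus GSK-343, 6081 in TSA minus DMSO and 7240 in GSK-343 minus DMSO. Exact 95% intervals of count ratios and the floor of 3 counts cover counting error only. The members, the lists and the alternatives (DESeq2 1.42.0, limma 3.58.1 on log2(TPM + 1) or log2(TPM + 0.1), scaling, filters, a replicate block, a trend on GC content and length, leaving out each library) were chosen with earlier results of these data known. From each list of other genes, up to 4 with the smallest adjusted p past the threshold in TSA minus GSK-343 were named, or the 1 smallest where none passed; for likeness, the 6 genes most like Stmn2.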

Additional observations from a re-analysis of the deposited data

How the results depend on the processing

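The number of genes called in TSA minus GSK-343 was 1598 (752 higher, 846 lower). It was 1007 with limma on log2(TPM + 1), 619 with a pseudocount of 0.1, 5 without a filter and 852 with the replicate block, and 162 to 2111 with 1 library left out, lowest without TSA replicate 2. The 27 list genes called there became 14, 7 and 0 in the same limma fits (49 at an unadjusted p under 0.05 in the last) and 10 to 39 with 1 library left out, and the 3 members called became 1 with a pseudocount of 0.1 and 1 without a filter. In TSA minus DMSO the 4359 genes called (1957 higher, 2402 lower) became 7530, 6876 and 7617 in those limma fits and 1984 to 5224 with 1 library left out, and the 37 list genes 21 to 50. In GSK-343 minus DMSO the 5903 genes called (2695 higher, 3208 lower) numbered 4780 to 6439 with 1 library left out, and the 4 members became 2 with limma on log2(TPM + 1), filtered or not. The cause of these changes was not tested, beyond fewer samples in the fits that leave out a library. Scaling by total counts changed the share of higher calls from 47.1% to 70.3%, from 44.9% to 74.8% and from 45.7% to 63.5% in the 3 comparisons, and moved the median of all genes by 0.20, 0.65 and 0.42. The 24 list genes named as called in TSA minus GSK-343 kept their direction in all alternatives; 15 lost their call without TSA replicate 2 and all 24 in the unfiltered limma fit, with adjusted p from 1.04e-11 to 0.873 over genes and alternatives. Of 485 refitted fold changes of single members, called or not, 406 lay within 1 SE of the main value and 79 beyond. None that was called in the main fit changed sign. Uncalled ones did, among them Tubb3 in TSA minus GSK-343 in 9 of 18 alternatives and Stmn1 in GSK-343 minus DMSO in 7 of 18.

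Same-numbered libraries of different groups had deviations from the group mean correlated at -0.0936 to 0.0395, and differently numbered ones at -0.0918 to 0.0936. In a group of 2 libraries the deviations mirror each other, so these values cannot decide whether replicate numbers pair the samples. With the replicate block 3, 4 and 3 members were called in place of 3, 5 and 4, and 22, 38 and 47 list genes in place of 27, 37 and 54. Depth limits Stmn3, Stmn4 and Tubb3, which had at most 34 counts in any library.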
